A study of Mus musculus with 8 samples.

Results

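The cholesterol synthesis genes Hmgcs1, Idi1, Fdps, Fdft1, Sqle, Cyp51 and Dhcr7 were examined in lens RNA of C57BL/6J and 129SvJae mice with and without the gap junction subunit α3Cx46. They were chosen by name, and every probe set of the MG-U74Av2 chip annotated to one of them was taken, which gave 10 probe sets for 7 of the 8251 genes named on the chip. A probe set is a group of short oligonucleotides that reads out 1 transcript. Fdps had 4 probe sets and each of the other genes had 1. All 7 genes are enzymes of synthesis, and no receptor for uptake is among them.

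There were 8 arrays, 2 for each of C57BL/6J α3Cx46 knockout (KO), C57BL/6J wild-type (WT), 129SvJae α3Cx46 KO and 129SvJae WT lenses, all from mice of both sexes at 10 days of age, when no cataract is seen. The share of each sex in a pool was not analysed here. The KO is a germline disruption that, per the study's description, leads later to a cataract that is milder on C57BL/6J and severe on 129SvJae. The 129 strains also carry a premature stop codon in the gene of the beaded filament protein CP49, in WT and KO lenses alike. Each array received RNA of 20 to 30 pooled lenses, and whether the 2 pools of a group shared animals is not stated, so a p-value here reflects only how far such pools differed, in part perhaps for technical reasons. In RNA of whole lenses, fewer cells of a type and less RNA per cell cannot be told apart.

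Animal cells build cholesterol from acetyl-CoA through mevalonate, the isoprenoids and squalene, the first sterol being lanosterol. When membrane cholesterol is low, the factor SREBP-2 moves to the nucleus and raises the transcription of nearly all of these enzymes. The lens has no blood vessels, its fiber cell membranes are exceptionally rich in cholesterol, and most of that cholesterol is made by the lens itself. Defects of the pathway are known to cloud the lens: cataract occurs in humans who lack DHCR7 activity, and rats with changes in Lss and Fdft1 develop hereditary cataract.

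The stretches upstream of the transcription start are shown for the genes of the set with a single listed start, because this is where the shared sterol response of the pathway is read. They cover 250 bases of the C57BL/6J reference (RefSeq, GRCm38.p6), 5′ to 3′ along the gene. Capitals mark matches, on either strand, to the sterol response element TCACNCCAC, its variant TCACCTCAG, the NF-Y box CCAAT and the GC box GGGCGG.
Hmgcs1, chr13:119690101-119690350, plus strand: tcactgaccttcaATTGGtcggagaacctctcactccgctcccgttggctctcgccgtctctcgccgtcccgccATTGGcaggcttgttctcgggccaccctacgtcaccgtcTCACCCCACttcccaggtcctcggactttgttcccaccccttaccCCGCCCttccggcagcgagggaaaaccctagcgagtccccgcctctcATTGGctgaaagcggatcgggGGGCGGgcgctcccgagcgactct
Idi1, chr13:8885356-8885605, plus strand: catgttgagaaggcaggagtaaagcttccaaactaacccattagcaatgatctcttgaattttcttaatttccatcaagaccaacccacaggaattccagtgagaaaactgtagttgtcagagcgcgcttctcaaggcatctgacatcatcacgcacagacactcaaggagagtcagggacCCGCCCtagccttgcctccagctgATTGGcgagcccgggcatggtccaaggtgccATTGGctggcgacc
Cyp51, chr5:4104698-4104947, minus strand: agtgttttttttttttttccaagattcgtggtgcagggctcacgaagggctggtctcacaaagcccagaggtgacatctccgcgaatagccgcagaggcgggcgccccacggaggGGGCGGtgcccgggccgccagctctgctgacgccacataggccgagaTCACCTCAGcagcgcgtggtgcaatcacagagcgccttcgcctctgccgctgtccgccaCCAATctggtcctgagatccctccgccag
Hmgcs1 held TCACNCCAC 137 bases upstream of the start, and Cyp51 held TCACCTCAG 88 bases upstream. Of all 32851 windows of the same length in the table, 1.05% held TCACNCCAC and 0.295% held TCACCTCAG. CCAAT was found 3 times in Hmgcs1, 2 times in Idi1 and 1 time in Cyp51 (33.8% of all windows hold it), and GGGCGG 2 times, 1 time and 1 time in the same genes (32.7%). No matches overlapped. Dhcr7 has 3 listed starts, of which 1 had 2 CCAAT and 3 GGGCGG matches and another had 1 GGGCGG match. Neither TCACNCCAC nor TCACCTCAG was found in Idi1 or at any listed start of Dhcr7. The table matched 4 of the 7 genes, and Fdps, Fdft1 and Sqle are named only. A match describes letters and not a bound site, and the 129SvJae sequence was not analysed here.

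The lens label held: the 7 fiber markers on the chip (among them Cryaa, Crygs and Mip) summed to 170053 to 308518 signal units per array. Markers of the retina summed to 749 in 129SvJae WT replicate 1 and to 91.8 to 343 on the other arrays, with the photoreceptor gene Sag at 475 on that array, while Rcvrn was under 50 on all arrays. Gja3, which encodes α3Cx46, was at 448 and 519 in KO lenses of C57BL/6J, 1968 and 3274 in WT lenses of C57BL/6J, 472 and 445 in KO lenses of 129SvJae, and 1100.3 and 3381 in WT lenses of 129SvJae, so every KO array was below every WT array. For C57BL/6J WT replicate 1 the chip run was logged with a fluidics error. Signals are MAS5 values on a linear scale with a trimmed mean of 250 per array, and values near or below 50 are close to background. A probe set was called where limma, fitted to the log2 signals of all 8 arrays and 10078 probe sets, gave a Benjamini-Hochberg adjusted p under 0.05. All 10 probe sets of the set entered the fit, but 2 dim ones of Fdps passed the level of 50 through 1 group only.

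None of the 7 genes passed that test between the strains or between the genotypes. Averaged over genotypes, 0 of 7 were called, against 0.367% of all probe sets. The same count of 0 was found between the strains in KO lenses (0.0893% of all probe sets called) and in WT lenses (0.0695%). It was also 0 for KO over WT averaged over strains (0.0198%), within C57BL/6J (0.00992%) and within 129SvJae (0%), and for the difference between the 2 KO effects (0%). At an unadjusted limma p under 0.05, 1 of 7 passed for the averaged strain difference (6.97% of all probe sets), 1 in KO lenses (3.73%) and 2 in WT lenses (6.47%). For the KO effect it was 0 of 7 averaged (3.05%), 0 in C57BL/6J (2.31%) and 1 in 129SvJae (3.12%), and for the difference between the KO effects it was 2 (2.11%). By the methods' criteria (a fold of at least 1.8, a level above 50 and a p of at most 0.01) 0 of 7 passed for the averaged strain difference (1.28% of all probe sets) and 0 of 7 for the averaged KO effect (0.456%).

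The first step measured here is the joining of acetoacetyl-CoA and acetyl-CoA by HMG-CoA synthase, the product of Hmgcs1. Its signals were 539.9 and 394 in KO lenses of C57BL/6J, 422 and 509.8 in WT lenses of C57BL/6J, 478 and 598 in KO lenses of 129SvJae, and 683 and 382 in WT lenses of 129SvJae. The highest and the lowest array of all 8 were thus the replicates of the 129SvJae WT group, and the groups overlapped. The averaged log2 ratio of C57BL/6J to 129SvJae was -0.18 (SE 0.24, adjusted p = 0.952) from limma, and that of KO to WT was 0.03 (SE 0.24, adjusted p = 0.998). Without 129SvJae WT replicate 1 the strain ratio was 0.033, and without replicate 2 of that group -0.39.

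Idi1 encodes the isomerase that interconverts the isoprenoid units used to build longer chains. Its signals were 472 and 478 in KO lenses of C57BL/6J, 483 and 429 in WT lenses of C57BL/6J, 514 and 706 in KO lenses of 129SvJae, and 572 and 512 in WT lenses of 129SvJae. All 4 C57BL/6J arrays lay below all 4 129SvJae arrays. The averages were 466 ± 24.7 in C57BL/6J and 576 ± 91.2 in 129SvJae lenses (SD, n = 4 each). Between strains this came to -0.30 on the log2 scale (SE 0.20, 95% interval -0.72 to 0.13, limma adjusted p = 0.876), which did not pass. It was -0.34 (SE 0.28) in KO lenses and -0.25 (SE 0.28) in WT lenses. The separation of the arrays already fixed that shared sign. The value in KO lenses rested largely on 129SvJae KO replicate 2, without which it was -0.11 and the averaged one -0.18.

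Farnesyl diphosphate synthase, from Fdps, makes the isoprenoid at which the sterol branch parts from protein prenylation. Through its brightest probe set the signals were 1316 and 1274 in KO lenses of C57BL/6J, 1014 and 1186 in WT lenses of C57BL/6J, 1645 and 1642 in KO lenses of 129SvJae, and 1346 and 1853 in WT lenses of 129SvJae. Here too the 4 C57BL/6J arrays lay below the 4 129SvJae arrays, though the nearest arrays of the strains, at 1316 and 1346, were close. The averages were 1198 ± 134 in C57BL/6J and 1621 ± 209 in 129SvJae lenses (SD, n = 4 each). The log2 ratio of -0.44 (SE 0.16, 95% interval -0.78 to -0.09) had an unadjusted p of 0.0175 and an adjusted p of 0.506 from limma, the smallest among these genes, and did not pass over all probe sets. It was -0.34 (SE 0.23) in KO lenses and -0.53 (SE 0.23) in WT lenses, where it was -0.29 without 129SvJae WT replicate 2.

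The other probe sets of Fdps gave a less clear picture. The second brightest, a set whose oligonucleotides are shared with a gene family, had 699 and 734 in KO lenses of C57BL/6J, 784 and 754 in WT lenses of C57BL/6J, 910 and 875 in KO lenses of 129SvJae, and 687 and 878 in WT lenses of 129SvJae. Its strains overlapped through 129SvJae WT replicate 1, and C57BL/6J over 129SvJae averaged -0.17 on the log2 scale (SE 0.17, limma adjusted p = 0.938). The pair of dim sets ranged from 15.5 to 66.6 and from 4.50 to 92.1, with 6 and 7 of 8 arrays under 50. Their log2 ratios of 0.38 (SE 0.72) and -0.73 (SE 1.02) are close to background and have no order. Of the 7 genes, 2 (Idi1 and Fdps) had all C57BL/6J arrays below all 129SvJae arrays, a separation seen in that direction for 2.62% of all probe sets.

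Squalene synthase, from Fdft1, commits farnesyl diphosphate to sterols. Its signals were 733 and 696 in KO lenses of C57BL/6J, 818 and 893 in WT lenses of C57BL/6J, 1117 and 1163 in KO lenses of 129SvJae, and 553 and 1008 in WT lenses of 129SvJae. The 129SvJae KO arrays were the highest of all 8, and the 129SvJae WT arrays lay far apart. In KO lenses the log2 ratio of C57BL/6J to 129SvJae was -0.67 (SE 0.28, unadjusted p = 0.0335, adjusted p = 0.9997) from limma, and in WT lenses it was 0.19 (SE 0.28, adjusted p = 0.961). The KO effect was -0.26 (SE 0.28) in C57BL/6J and 0.61 (SE 0.28) in 129SvJae lenses, and their difference of -0.87 (SE 0.40) had an unadjusted p of 0.0494 and an adjusted p of 0.9998 by the same fit. These values moved with the arrays of 129SvJae WT. Without replicate 1 the strain ratio in WT lenses was -0.24, the KO effect in 129SvJae 0.18 and the difference between KO effects -0.44, and without replicate 2 they were 0.63, 1.04 and -1.30.

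Sqle encodes squalene epoxidase, which adds oxygen to squalene ahead of ring closure. Its signals were 553 and 745 in KO lenses of C57BL/6J, 623 and 622 in WT lenses of C57BL/6J, 557 and 612 in KO lenses of 129SvJae, and 475 and 709.7 in WT lenses of 129SvJae. Among the brightest probe sets of the genes this was the narrowest range, with the highest array 1.57 times the lowest. The arrays overlapped in every comparison of strains or genotypes made here. The averaged log2 ratios were 0.12 (SE 0.20, 95% interval -0.32 to 0.56) for C57BL/6J over 129SvJae and 0.03 (SE 0.20, 95% interval -0.41 to 0.46) for KO over WT, with adjusted p = 0.958 and 0.998 from limma. Without 129SvJae WT replicate 1 the strain ratio was -0.026, and without replicate 2 of that group 0.26.

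**Figure D1:**
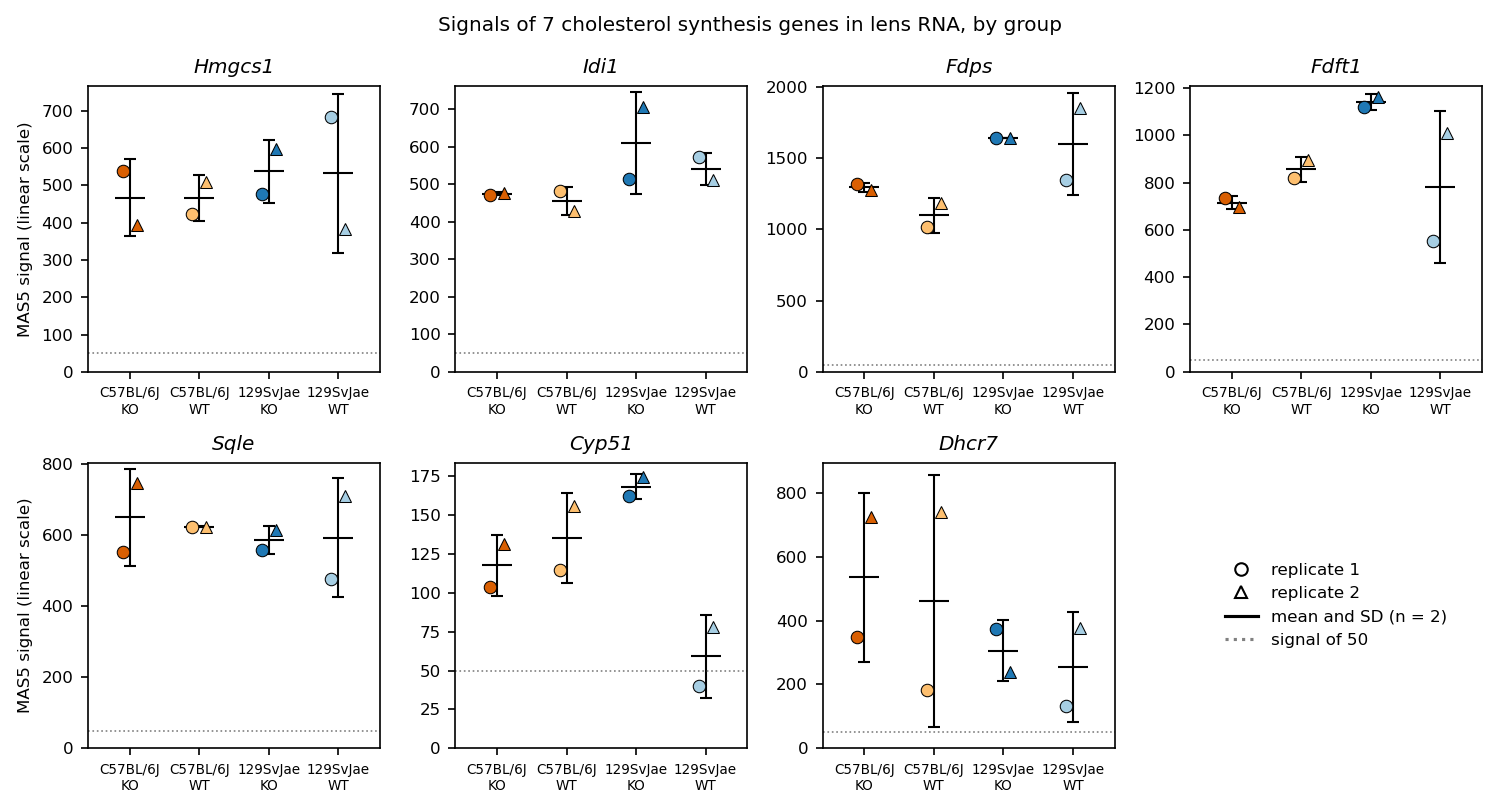
MAS5 signals (linear y axes from 0) of the 7 genes in each group (x axes), with circles for replicate 1, triangles for replicate 2, bars for the mean and SD of 2 arrays and a dotted line at a signal of 50. Idi1 and Fdps sit lower in all C57BL/6J arrays than in any 129SvJae array, Cyp51 is lowest in 129SvJae WT (40.3 and 77.9), and Dhcr7 spreads from 133.5 to 740.3 with replicates of a group far apart.

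Cyp51 encodes the lanosterol demethylase, the first enzyme acting on the sterol ring in this set. Among the brightest probe sets of the genes, it had the largest ratio between groups. Its signals were 104 and 132 in KO lenses of C57BL/6J, 115 and 156 in WT lenses of C57BL/6J, 163 and 174 in KO lenses of 129SvJae, and 40.3 and 77.9 in WT lenses of 129SvJae. Both 129SvJae WT arrays lay below the other 6, and both 129SvJae KO arrays lay above them. The group means were 118 ± 19.7 in KO lenses of C57BL/6J, 135 ± 29.0 in WT lenses of C57BL/6J, 168 ± 8.26 in 129SvJae KO and 59.1 ± 26.6 in 129SvJae WT lenses (SD, n = 2 each). The KO effect in 129SvJae was 1.59 (SE 0.57, 95% interval 0.36 to 2.82) on the log2 scale, with an unadjusted p of 0.0155 and an adjusted p of 0.9998 from limma. In C57BL/6J it was -0.20 (SE 0.57), and the difference between the strains' KO effects was -1.78 (SE 0.81, unadjusted p = 0.0456, adjusted p = 0.9998) by the same fit.

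The strain difference of Cyp51 changed sign with genotype, at -0.53 (SE 0.57) in KO and 1.26 (SE 0.57) in WT lenses, with adjusted p = 0.9997 and 0.768 from limma. The low group included 1 signal under 50, that of 129SvJae WT replicate 1. Without that array the strain ratio in WT lenses was 0.78 and the KO effect in 129SvJae 1.11, and without replicate 2 of the group they were 1.73 and 2.06. Among arrays with the same replicate number, which for replicate 1 also shared a scan session, KO over WT in 129SvJae was 2.01 for replicate 1 and 1.16 for replicate 2. In the same arrays the retina marker sums were 343 and 91.8 in 129SvJae KO and 749 and 207 in 129SvJae WT lenses, and those of the lens epithelium 2379 and 2352 in 129SvJae KO and 3381 and 2389 in 129SvJae WT lenses. The lens fiber sums were 228935 and 170053 in 129SvJae KO and 289552 and 235676 in 129SvJae WT lenses, with both KO arrays below both WT arrays. The part of these markers in the values of Cyp51 and Fdft1 was not tested.

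Dhcr7 encodes the reductase of the last step to cholesterol. Its signals were 348 and 723 in KO lenses of C57BL/6J, 182 and 740.3 in WT lenses of C57BL/6J, 374 and 238 in KO lenses of 129SvJae, and 133.5 and 378 in WT lenses of 129SvJae. In 3 of 4 groups the replicates differed by more than 2-fold, with replicate 2 the higher. The averaged log2 ratio of C57BL/6J to 129SvJae was 0.73 (SE 0.44, 95% interval -0.23 to 1.69, adjusted p = 0.854) from limma, and that of KO to WT was 0.43 (SE 0.44, adjusted p = 0.998). With single arrays left out, the strain ratio ranged from 0.22 (without C57BL/6J WT replicate 2) to 1.23 (without C57BL/6J WT replicate 1). The pooled SD of log2 signals within groups was 0.99, larger than for 79.2% of all tested probe sets, against 0.18 to 0.39 for the other genes (larger than for 7.22% to 34.6%).

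Averaged over strains, all 7 log2 ratios of KO to WT were positive, with a median of 0.15 against -0.02 over all probe sets, of which 47.3% were positive, but Sqle was at -0.0048 with quantile normalization, Hmgcs1 at -0.19 in the fit blocked on scan session and Fdps at -0.28 as the mean of its probe sets. Leaving out a single array also turned the sign of Hmgcs1, Idi1, Fdft1, Sqle or Dhcr7. The ratios ran from 0.03 (SE 0.20) for Sqle to 0.70 (SE 0.40) for Cyp51, and no adjusted p was under 0.998 from limma. Within C57BL/6J the median was 0.04 with 4 positive ratios, to which Hmgcs1 was added with arrays centred on the median. Within 129SvJae it was 0.15 with 7 positive ratios, but Fdps and Sqle were at -0.028 and -0.023 with quantile normalization, Hmgcs1 at -0.38 in the fit blocked on scan session and Fdps at -0.64 as the mean of its probe sets.

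Of the 7 lens fiber markers tested, 0 were called by limma in any comparison, where at most 0.367% of all probe sets were called. Their averaged KO ratios had a median of -0.33 (-0.24 in C57BL/6J and -0.44 in 129SvJae) and were negative for 7 of 7, but for 4 of 7 with quantile normalization (median -0.038) and for 6 of 7 with arrays centred on the median (median -0.23). Their part in the ratios of the synthesis genes was not tested.

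Averaged over genotypes, the ratios of C57BL/6J to 129SvJae had a median of -0.18 against 0.01 over all probe sets, with 3 positive and 4 negative.

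The arrays of single groups separated more often, as they do for many probe sets when 2 arrays face 2. In KO lenses both C57BL/6J arrays lay below both 129SvJae arrays for 4 of 7 genes (Idi1, Fdps, Fdft1 and Cyp51), against 14.6% of all probe sets. In WT lenses they lay below for 2 (Idi1 and Fdps, 17.2%) and above for 1 (Cyp51, 15.1%). KO arrays lay above WT arrays in 129SvJae for 2 (Fdft1 and Cyp51, 12.2%), and in C57BL/6J above for 1 (Fdps, 13.6%) and below for 1 (Fdft1, 14%). Over both strains, 0 of 7 separated KO from WT (2.19%).

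Within replicate numbers, the Fdps ratio of C57BL/6J to 129SvJae was -0.32 and -0.37 in KO lenses (replicates 1 and 2). In WT lenses it was -0.41 and -0.64. Idi1 was at -0.12 and -0.56 in KO and -0.24 and -0.25 in WT lenses. All C57BL/6J arrays of these genes lay below all 129SvJae arrays, so the signs were fixed and add nothing to that separation. The second brightest set of Fdps was at -0.38 and -0.25 in KO and 0.19 and -0.22 in WT lenses. Fdft1 was -0.61 and -0.74 in KO lenses but 0.56 and -0.18 in WT lenses. Hmgcs1 turned sign between the replicates in both genotypes, at 0.17 and -0.60 in KO and -0.69 and 0.42 in WT lenses. Of these pairs, replicate 1 was scanned in 1 session for all groups, while replicate 2 of 129SvJae WT was scanned apart from the other 3.

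**Figure D2:**
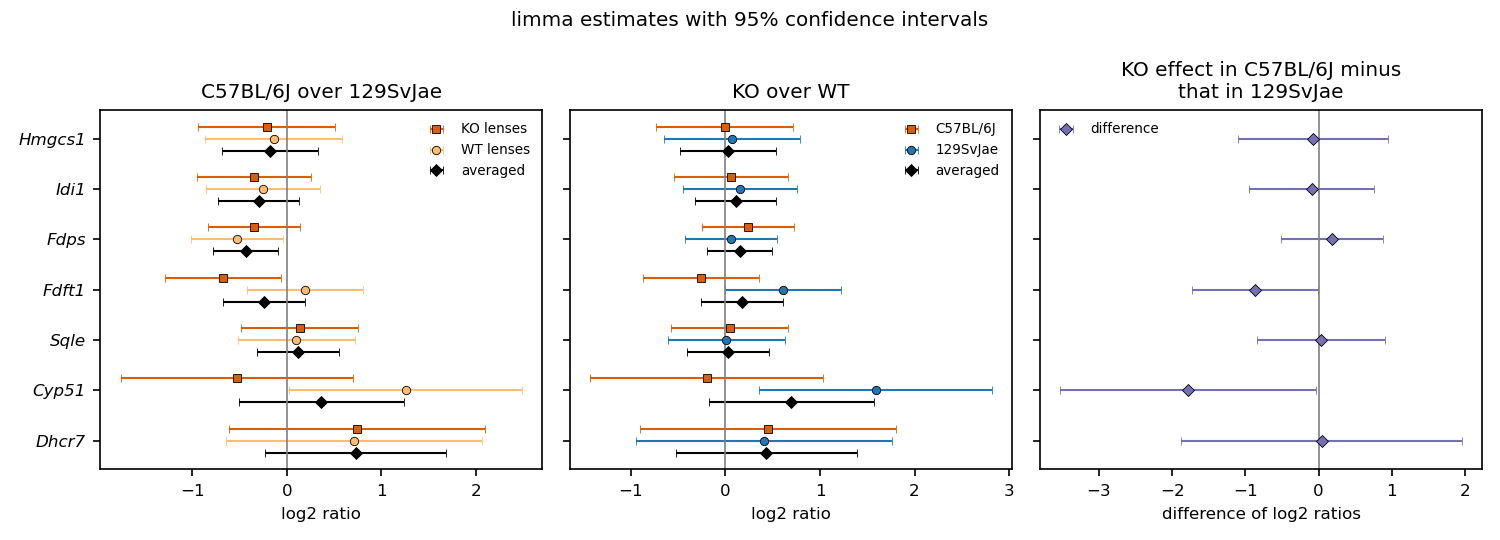
limma estimates (x axes, log2) with 95% confidence intervals for each gene (rows): C57BL/6J over 129SvJae on the left, KO over WT in the middle, and the difference between the KO effects of the strains on the right. Cyp51 in 129SvJae lenses has the largest KO effect (1.59), and the averaged intervals of 6 of 7 genes for the strains and of all 7 for the genotype include 0.

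Over 8 arrays, the 21 pairs of genes had a median Pearson correlation of 0.075, from -0.843 (Spearman -0.857) for Hmgcs1 with Sqle to 0.709 (Spearman 0.690) for Fdft1 with Cyp51, and 13 pairs were above 0. The arrays share scaling and scan sessions, so these values are descriptive. The mean of the 7 genes, each centred on its own mean, was lowest in 129SvJae WT replicate 1 (-0.45) and in C57BL/6J WT replicate 1 (-0.23), and highest in 129SvJae KO replicate 2 (0.23). 129SvJae WT replicate 1 has the high retina marker sum and C57BL/6J WT replicate 1 the fluidics note, and their part in the result was not tested. In 129SvJae WT replicate 1, Hmgcs1 was at its highest while Cyp51, Dhcr7, Fdft1 and Sqle were at their lowest.

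**Figure D3:**
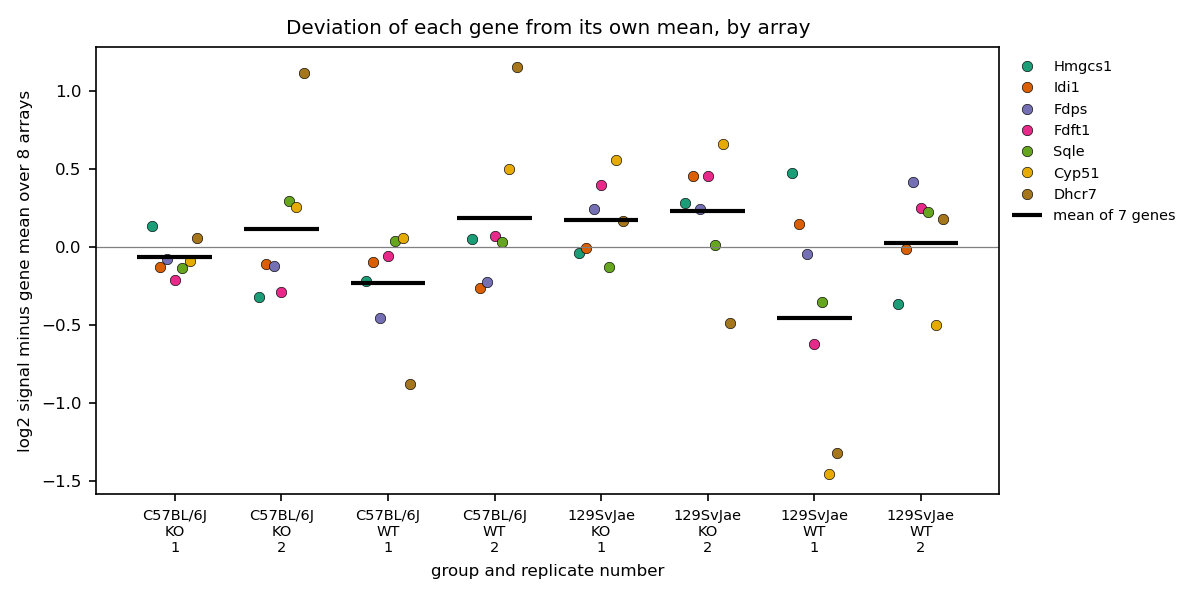
log2 signal of each gene minus its mean over 8 arrays (y axis) for each array (x axis, group and replicate number), with a black bar for the mean of the 7 genes. The bar is lowest in 129SvJae WT replicate 1 (-0.45), where Hmgcs1 stands above 0 and Cyp51 and Dhcr7 stand far below.

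The genes whose log2 signals followed that mean most closely over the 8 arrays were Tiprl (Pearson 0.976), Ubxn1 (0.958), Psmb1 (0.956), Tm2d2 (0.945) and Pcsk5 (0.943). Psmb1 is a subunit of the proteasome and Pcsk5 a proprotein convertase. Tiprl ranged from 240 in 129SvJae WT replicate 1 to 402 in 129SvJae KO replicate 2, the same lowest and highest arrays as the mean of the set. Pcsk5 was under 50 on 4 of the 8 arrays. The likeness describes 8 arrays that share their scaling. The mean is not scaled by gene, so the genes that vary most weigh most in it. The SD of log2 signals over the 8 arrays was 0.88 for Dhcr7 and 0.70 for Cyp51, against 0.21 to 0.37 for the others.

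Of the rest of the pathway, 42 genes in 5 lists were tested (71 listed, 44 on the chip). By limma 0 rose and 0 fell in any comparison, where at most 0.367% of all probe sets were called. At an unadjusted limma p under 0.05 there were 3 of 42 for the averaged strain difference (6.97% of all probe sets). There were 1 in KO lenses (3.73%) and 2 in WT lenses (6.47%). For the KO effect there were 0 averaged (3.05%), 1 in C57BL/6J (2.31%) and 2 in 129SvJae (3.12%). The difference between KO effects had 1 (2.11%). Among the 10 other synthesis enzymes tested, the strain ratios had a median of 0.08 and the KO ratios one of 0.05. Msmo1, a methyl oxidase that acts after Cyp51, had a strain ratio of -0.69 (SE 0.36, adjusted p = 0.774) from limma. For Nsdhl, which acts in sterol demethylation, the strain ratio was -0.32 (SE 0.21, adjusted p = 0.867) by the same fit. Lss makes lanosterol, the substrate of Cyp51, and its signals were 84.6 and 117 in KO lenses of C57BL/6J, 91.0 and 108 in WT lenses of C57BL/6J, 109 and 114 in KO lenses of 129SvJae, and 47.9 and 33.1 in WT lenses of 129SvJae. As with Cyp51, both 129SvJae WT arrays were the lowest of the 8, here with both under 50. Its KO ratio was 0.75 averaged (SE 0.45, adjusted p = 0.998) and 1.49 in 129SvJae (SE 0.64, unadjusted p = 0.0360, adjusted p = 0.9998) from limma.

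Among 10 uptake and sterol sensing genes, Npc2, which carries cholesterol out of the lysosome, had the smallest p, with a strain ratio of -0.49 (SE 0.17, unadjusted p = 0.0128, adjusted p = 0.449) from limma. Lrp2, an endocytic receptor, had 0.81 (SE 0.50, adjusted p = 0.852), and Vldlr, a lipoprotein receptor, had a KO ratio of -0.69 (SE 0.46, adjusted p = 0.998). The median strain ratio of this list was 0.16 and its median KO ratio -0.01. Of 6 efflux and storage genes, the cholesterol transporter Abca1 had a strain ratio of 1.34 (SE 0.70, adjusted p = 0.786) and the transporter Abcg1 a KO ratio of -0.94 (SE 0.47, adjusted p = 0.998) from limma. The strain ratio of Cyp7b1, an oxysterol hydroxylase, was -0.56 (SE 0.40, limma adjusted p = 0.886). The median strain ratio of the list was 0.02 and its median KO ratio -0.26.

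In the isoprenoid branch, which uses the product of Fdps, 6 genes were tested with a median strain ratio of -0.34 and a median KO ratio of -0.0024. The prenyl transferase subunits Rabggtb and Fnta had strain ratios of -0.46 (SE 0.19, unadjusted p = 0.0339) and -0.39 (SE 0.17, unadjusted p = 0.0430), with adjusted p = 0.643 and 0.698 from limma. Ggps1, which makes geranylgeranyl diphosphate, had 0.43 (SE 0.26, adjusted p = 0.848). Of 10 tested genes of fatty acid synthesis, which SREBP factors also control, the median strain ratio was -0.16 and the median KO ratio -0.11. Elovl6 and Elovl1, of chain elongation, had averaged KO ratios of -0.60 (SE 0.30) and -0.31 (SE 0.30), both with adjusted p = 0.998 from limma. For Elovl6 the KO ratio was -1.27 in C57BL/6J (SE 0.42, limma unadjusted p = 0.0097, adjusted p = 0.9999) and 0.07 in 129SvJae (SE 0.42). Scd2, a desaturase, had a strain ratio of -0.24 (SE 0.14, adjusted p = 0.848) from limma.

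**Figure D4:**
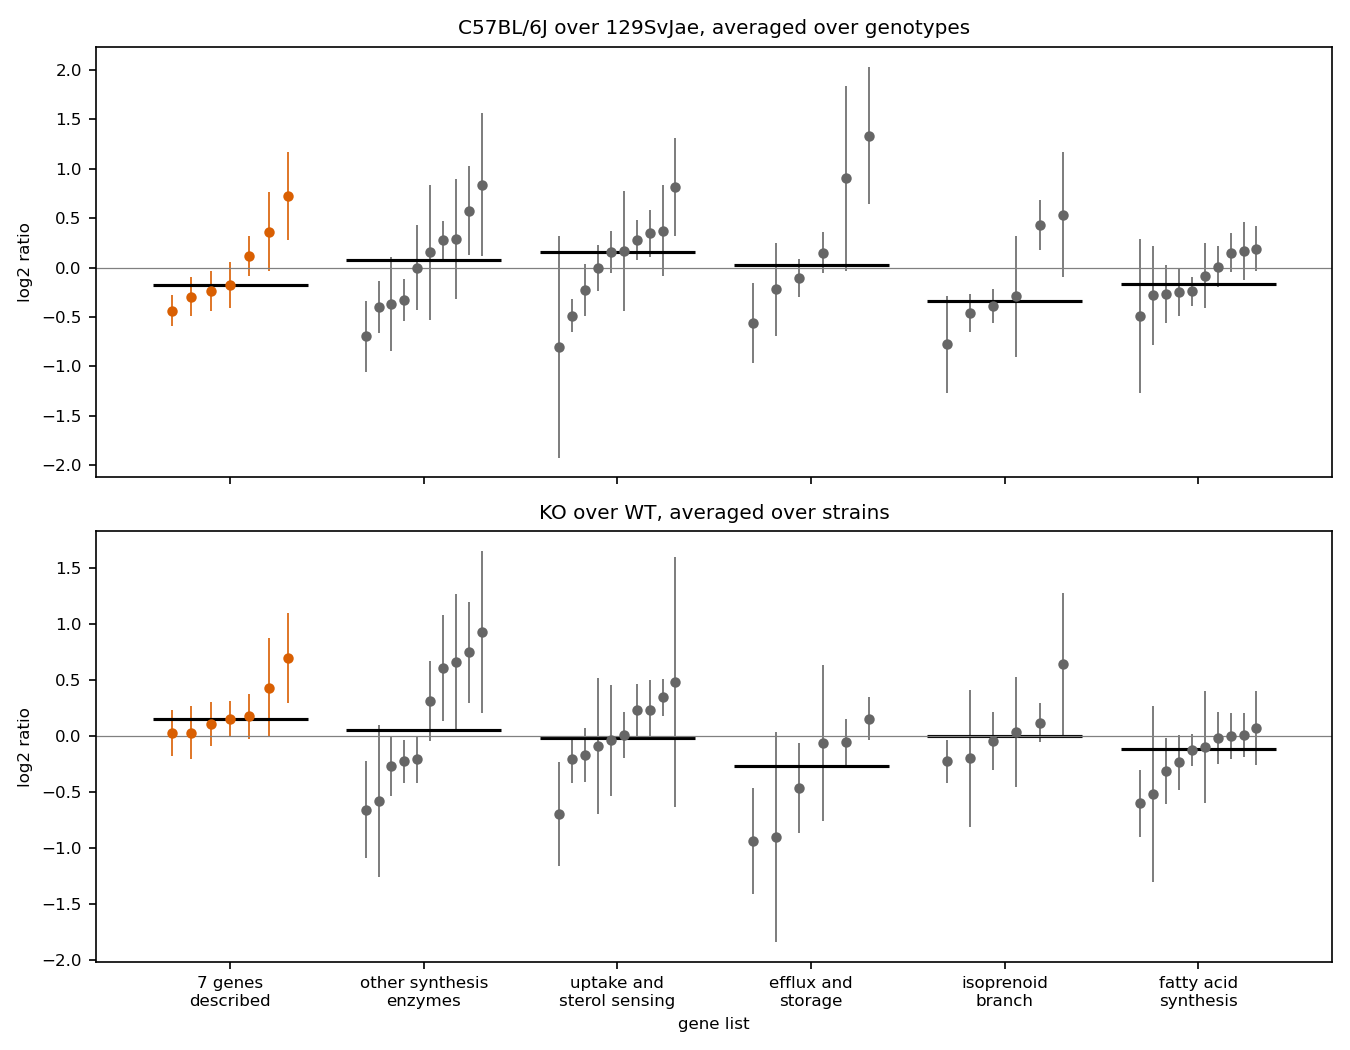
log2 ratios (y axes) with standard errors for the tested genes of each list (x axis, genes ordered by ratio within a list), with a black bar for the list's median. The upper panel gives C57BL/6J over 129SvJae and the lower panel KO over WT. None of the listed genes was called, against 0.367% and 0.0198% of all probe sets. The 7 genes (orange) have medians of -0.18 and 0.15.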

How the data were processed

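Lens RNA of 8 samples was hybridized by the authors to MG-U74Av2 chips, 1 sample per chip. They summarized it with MAS5 (Microarray Suite 5.0 per the methods) and deposited 1 intensity per probe set, scaled to a mean of 250. Array number and signal over background limit the precision. Groups and replicate numbers come from the sample labels.

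Signals were brought to a trimmed mean of 250 per array (2% off each end), 1 signal at or under 0 was set to 1, and log2 was taken. The 66 controls among 12488 probe sets were dropped, and 10078 of the other 12422 had a mean above 50 in at least 1 group and were tested with limma 3.58.1 (R 4.3.3), with 4 group means, a variance trend, and 4 residual and 9.17 prior degrees of freedom. Signals printed are the rescaled ones, log2 ratios are differences of mean log2 signals, and the intervals are not adjusted for the number of tests. Of the 12422, 10833 have 1 gene symbol, 396 several and 1193 none. Genes were named only from 1 symbol, 10817 of them also in the gene table of GRCm38.p6.

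The members and lists were chosen with earlier results of these data known. All 7 genes are named, each through its brightest probe set, with 3 genes per pathway list by smallest p for the averaged strain or KO difference, Gja3, and the 5 genes closest to the mean of the set. Of the marker lists, lens fiber and retina are given as sums. Those of lens epithelium (2084 to 3381 per array), pigmented tissue (144 to 535), blood (391 to 743), vessel and mesenchyme (1185 to 2379) and cornea (189 to 549.9) were summed in the same way.

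Replicate numbers pair the arrays: deviations of same-numbered arrays correlated at 0.129 to 0.206 over probe sets in all 6 pairs of groups, and replicate 1 of all groups shared 1 of 3 scan sessions. Alternatives were other scalings, an offset of 16, a floor of 50, other level filters (none, 100) and variance priors, a fit to the compared groups alone, replicate number or scan session as a block, the methods' t-test, a mean over probe sets, and each array left out. The fit was tested on simulated data with the spread of each probe set. For the averaged strain difference it called 48 of 100 4-fold changes and 16 of 100 2-fold changes. For the averaged KO effect it called 44 of 100 and 16 of 100. Most simulated 2-fold changes were thus missed, and a gene that was not called may still differ. The changed probe sets were drawn from all those tested, so these rates are not those of the 7 genes. Except for Dhcr7, the genes varied less within groups (SD 0.18 to 0.39 through the brightest probe sets) than the median tested probe set (0.54).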

Additional observations from a re-analysis of the deposited data

Results flagged for a closer look

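The effect of the KO on Fdft1 ran opposite ways in the strains: both C57BL/6J KO arrays were below both C57BL/6J WT arrays, and both 129SvJae KO arrays were above both 129SvJae WT arrays. The difference between the KO effects was -0.87 (SE 0.40) on the log2 scale and did not pass limma (adjusted p = 0.9998). It was -0.44 without 129SvJae WT replicate 1 and -1.30 without replicate 2 of that group. The strain difference of Cyp51 ran opposite ways in the genotypes: both C57BL/6J arrays were below both 129SvJae arrays in KO lenses, and above them in WT lenses. That difference was -1.78 (SE 0.81) and did not pass limma either (adjusted p = 0.9998), and it ranged from -2.26 to -1.31 with single arrays left out. With 2 arrays per group, the arrays of 2 groups do not overlap for 27.7% to 32.3% of all probe sets, depending on the comparison. No group had the 4 arrays needed to look for a single outlying array.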

How the results depend on the processing

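No gene of the set was called under any of the 149 alternative counts (7 comparisons), the replicate block and the scan session as a block included. Few probe sets were called at all, so these counts say little about the 7 genes. For the averaged strain difference, 37 of 10078 were called as reported and 1 of 10078 without the variance trend. Of 980 alternative values of the ratios of single genes, 917 kept direction and call and 63 turned the direction of a ratio that had not passed the test, 46 of them with 1 array left out and 11 of these without 129SvJae WT replicate 1. The ratios that turned with an array left out, which leaves a lone array assumed to vary like the other groups, had these ranges. The averaged strain ratio ranged from -0.39 to 0.033 for Hmgcs1 and -0.026 to 0.26 for Sqle. The strain ratio in WT lenses ranged from -0.31 to 1.72 for Dhcr7, -0.24 to 0.63 for Fdft1, -0.56 to 0.28 for Hmgcs1 and -0.19 to 0.39 for Sqle. The strain ratio in KO lenses ranged from -0.44 to 0.014 for Hmgcs1 and -0.079 to 0.35 for Sqle. The averaged KO ratio ranged from -0.075 to 0.94 for Dhcr7, -0.041 to 0.39 for Fdft1, -0.18 to 0.24 for Hmgcs1, -0.0069 to 0.22 for Idi1 and -0.12 to 0.17 for Sqle. The KO ratio in 129SvJae ranged from -0.34 to 1.16 for Dhcr7, -0.17 to 0.29 for Fdps, -0.35 to 0.49 for Hmgcs1, -0.075 to 0.38 for Idi1 and -0.28 to 0.30 for Sqle. The KO ratio in C57BL/6J ranged from -0.42 to 0.024 for Cyp51, -0.56 to 1.47 for Dhcr7, -0.24 to 0.22 for Hmgcs1, -0.024 to 0.15 for Idi1 and -0.17 to 0.26 for Sqle. The difference between KO effects ranged from -0.97 to 1.05 for Dhcr7, -0.049 to 0.41 for Fdps, -0.49 to 0.34 for Hmgcs1, -0.32 to 0.14 for Idi1 and -0.25 to 0.33 for Sqle. With the scan session as a block, Hmgcs1 turned to -0.19 (averaged KO ratio), -0.38 (KO ratio in 129SvJae) and 0.37 (difference between KO effects), and that difference turned to 0.037 for Idi1, -0.020 for Fdps, -0.16 for Sqle and -0.30 for Dhcr7. With the mean of its probe sets, Fdps turned to 0.12 (strain ratio in KO lenses), -0.28 (averaged KO ratio) and -0.64 (KO ratio in 129SvJae), and its dim probe sets enter that mean. With quantile normalization, Sqle turned to -0.0048 (averaged KO ratio) and -0.023 (KO ratio in 129SvJae), Fdps to -0.028 (KO ratio in 129SvJae) and Dhcr7 to -0.022 (difference between KO effects). With arrays centred on the median, Hmgcs1 turned to 0.046 (KO ratio in C57BL/6J), and the difference between KO effects to -0.053 for Sqle and -0.048 for Dhcr7. That centring moved the median of all probe sets, for the KO ratio in 129SvJae, to 0.09, against -0.05 as reported. Apart from the mean over probe sets, the cause was not tested. The replicate block, which keeps each ratio as it is with 2 arrays in every group, changed no call among the 7 genes. Over all probe sets it changed the calls for the averaged strain difference from 37 to 58. Signal over background limits Cyp51 in 129SvJae WT lenses: with signals under 50 set to 50, its KO ratio in 129SvJae was 1.43.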
